A study of Mus musculus with 12 samples.

Results

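Peaks of chimeric reads assigned to miRNAs that are known as enriched in glia or blood cells were collected from lists of Argonaute 2 (Ago2) target sites in adult mouse forebrain. A peak is a stretch of target RNA where reads that join a small RNA to its target pile up, and each peak carries the name of 1 small RNA. Peaks were taken by that name alone. The names beginning with miR-219a, miR-219b or miR-338 formed the oligodendrocyte group, miR-204 or miR-21a the astrocyte group, and miR-146a, miR-142a or miR-223 the microglia or blood group. Peaks on mitochondrial rRNA and on Gm42418, a gene that overlaps an rRNA repeat, were left out. In all, 1355 of 245769 peaks outside rRNA were members, 1335 of them in 1 deep list and 20 in a shallower one.

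The mice were adult C57BL/6, harvested at 10 to 12 weeks of age. The labels describe a line in which Camk2a-CreERT2, active in excitatory neurons, switches on a tagged Ago2 with GFP (CAG-GFP/Eif2c2) at the ROSA26 locus, after 2 mg of tamoxifen daily by intraperitoneal injection for 5 days and an induction of 14 to 21 days. One treatment text is repeated for each sample, which leaves unstated whether mice used for anti-Ago2 or IgG had the tag. Forebrain was precipitated with anti-Ago2 2D4 for total Ago2 (7 libraries), anti-myc 9B11 for the tagged Ago2 of excitatory neurons (3 libraries) or control IgG1 (2 libraries). The authors called peaks over pooled libraries, so the 4 anti-Ago2 libraries numbered 1 to 4 (reps 1-4), the 3 numbered 5 to 7 (reps 5-7), the 3 excitatory and the 2 IgG libraries each give 1 list and no spread between libraries. Every interval and p-value below therefore covers counting error only.

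A miRNA guides Ago2 to RNAs that pair with its seed, bases 2 to 8 counted from its 5′ end, and bound mRNAs are usually repressed. miR-219 and miR-338 are known for promoting the maturation of oligodendrocytes, partly by lowering factors that hold their precursors in division. miR-204 is abundant in choroid plexus and astrocytes, and miR-21 is induced in reactive astrocytes. miR-142 and miR-223 are hallmarks of blood-derived cells, and miR-146a is a brake on inflammatory signalling.

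The mature sequences of the named miRNAs show how each group combines unrelated seeds. Of 10 member names, 9 matched RefSeq entries (GRCm38.p6), and those 9 have 9 distinct seeds. The seed is in capitals, and miR-146b-5p, which is not a member, is shown because it shares its seed with miR-146a-5p.
miR-219a-5p: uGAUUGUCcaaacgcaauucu
miR-338-3p: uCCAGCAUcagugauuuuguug
miR-204-5p: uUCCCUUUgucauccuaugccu
miR-21a-5p: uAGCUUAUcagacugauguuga
miR-142a-3p: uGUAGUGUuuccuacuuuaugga
miR-146a-5p: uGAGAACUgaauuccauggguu
miR-146b-5p: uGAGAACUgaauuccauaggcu
miR-223-3p: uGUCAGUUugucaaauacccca

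miR-219a-5p comes from 2 genes, Mir219a-1 on chromosome 17 and Mir219a-2 on chromosome 2, and a peak cannot be traced to either. miR-146b-5p differs from miR-146a-5p at 2 positions, both outside the seed, and had 27 peaks of its own. Of the 21 peaks of miR-146a-5p, 5 overlapped a peak of miR-146b-5p, so reads at those places could belong to either miRNA. miR-211-5p, which differs from miR-204-5p at 1 position, had 0 peaks in reps 1-4.

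The oligodendrocyte group was the largest. In reps 1-4 it held 742 peaks on 480 genes, the astrocyte group 473 peaks on 297 genes, and the microglia or blood group 120 peaks on 94 genes. The members together made up 0.552% of 242044 peaks (Wilson 95% interval 0.523 to 0.582%) and touched 748 of 11349 genes with any peak. A single arm carried most of each group: miR-219a-5p had 648 peaks, miR-204-5p 413 and miR-142a-3p 94. The rest were miR-338-3p with 88 peaks, miR-21a-5p with 60, miR-146a-5p with 21, miR-219a-2-3p with 6, miR-142a-5p and miR-223-3p with 2 each, and miR-146a-3p with 1. No peak bore the name miR-219b. Among 708 small RNAs ordered by number of peaks, miR-219a-5p was at place 40, miR-204-5p at 48, miR-142a-3p at 100 and miR-338-3p at 106. For scale, miR-124-3p, a neuronal miRNA, had 72011 peaks.

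Members lay on rRNA more often than peaks in general before those peaks were set aside. In reps 1-4, 109 of 1444 peaks with a member name were on rRNA (7.55%), against 1.68% of all peaks. In reps 5-7 it was 11 of 31 (35.5%), against 16.4% of all. In all values that follow, outside rRNA means without peaks annotated to mitochondrial rRNA or to Gm42418. Peaks in the flank of Gm42418 were kept, and whether they lie on rRNA was not tested.

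**Figure D1:**
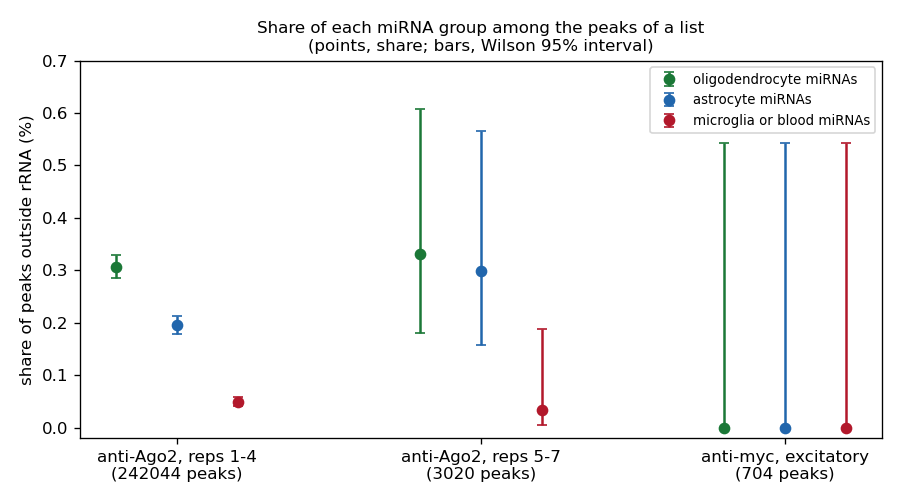
Share of each miRNA group among the peaks outside rRNA (vertical axis, percent) in the 3 larger lists (horizontal axis), as points with Wilson 95% intervals. The oligodendrocyte and astrocyte groups sit at 0.307% and 0.195% in reps 1-4 and at 0.331% and 0.298% in reps 5-7 with overlapping intervals, and all groups are at 0 of 704 in the excitatory list.

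Group shares in reps 5-7 had intervals that overlapped those of reps 1-4. The oligodendrocyte group took 10 of 3020 peaks (0.331%, 0.180 to 0.608%) against 0.307% in reps 1-4, and the astrocyte group 9 (0.298%, 0.157 to 0.565%) against 0.195%. The microglia or blood group had 1 peak (0.0331%) against 0.0496%. Among the 3020 highest-scoring peaks of reps 1-4, the groups had 3 (0.0993%, 0.0338 to 0.292%), 7 (0.232%, 0.112 to 0.478%) and 1 (0.0331%), in the same order. Per miRNA, miR-219a-5p had 9 peaks, miR-204-5p 8, and miR-338-3p, miR-21a-5p and miR-142a-3p 1 each. None of the 6 members tested passed Fisher's exact test between the lists (Benjamini-Hochberg adjusted over 243 small RNAs, adjusted p = 1 for each, none with an unadjusted exact p under 0.05), where 2.88% of all small RNAs tested did. The odds ratio was 1.55 for miR-204-5p (unadjusted exact p = 0.186) and 1.11 for miR-219a-5p (0.721).

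No member peak was found in excitatory neurons. The excitatory list held 0 of 704 member peaks, which allows a share of up to 0.426%. That limit lies above the reps 1-4 share of each single group and below the 0.552% of the groups combined. None of the 6 members passed Fisher's exact test here (adjusted p = 1 for each, none with an unadjusted exact p under 0.05), where 4.12% of small RNAs did. miR-219a-5p, with 648 peaks in reps 1-4 and 0 here, had an unadjusted exact p of 0.273. The absence of any one of these miRNAs was thus not detectable at this depth. In reps 1-4, members made up 0.415% of peaks with a score of at least 10 (0.348 to 0.496%), below the 0.552% of all its peaks, and 3 of its 704 highest-scoring peaks (0.426%, 0.145 to 1.25%). The IgG list had 1 peak outside rRNA, and it was not a member.

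Most member peaks were at the lower end of the authors' score, a whole number of at least 3 whose definition is not stated. The median was 3 for members and 4 for all other peaks, and 51.0% of members had the lowest score against 40.8% of other peaks. Only 121 members (9.06%) reached 10, against 12.0% of other peaks. Member peaks were 28 bases wide at the median, and peaks of all small RNAs 23 bases.

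**Figure D2:**
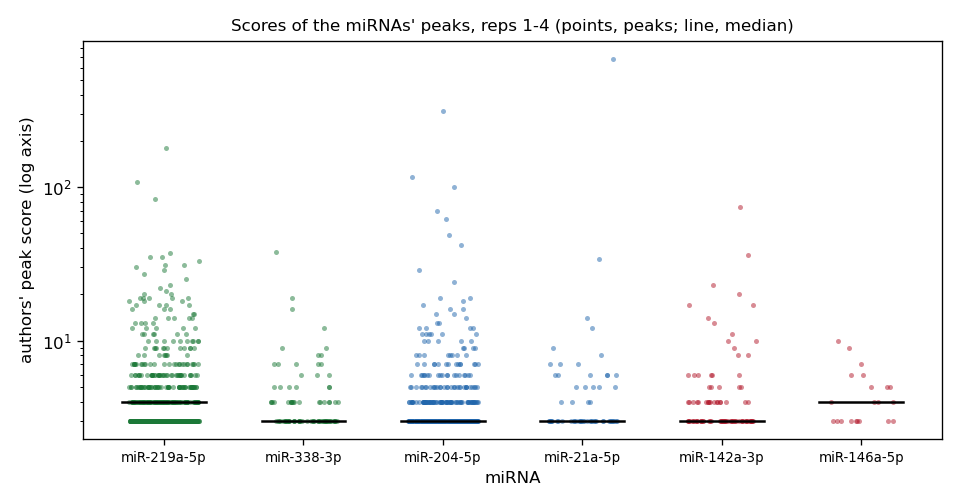
Authors' score (log axis) of each peak in reps 1-4 for the 6 miRNAs with at least 20 peaks, with the median as a line. The medians are 3 or 4, and single peaks stand far above the rest, up to 680 for miR-21a-5p and 311 for miR-204-5p.

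Single sites stood far above the rest, several of them on transcripts outside the usual miRNA targets. The highest member score, 680, belonged to miR-21a-5p on the mitochondrial methionine tRNA mt-Tm (chrM:3862-3865). The score sum of all 16 peaks on mt-Tm, each of a different small RNA, was 756. In reps 5-7 the miR-21a-5p peak was the only one on mt-Tm, at a score of 21. The next miR-21a-5p peak on a named gene, on the 3′ UTR of the cannabinoid receptor Cnr1 (chr4:33947337-33947366), scored 14.

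miR-204-5p had its highest peak on the coding sequence of Ttr (chr18:20666558-20666566, score 311), the transthyretin gene, whose brain source is the choroid plexus. Ttr bore 57 peaks of 36 small RNAs, and miR-204-5p gave 381 of their summed score of 1178 through 2 peaks, the other in an intron at 70. The next small RNA on Ttr by score was miR-1298-5p, at 197. In reps 5-7, Ttr again had its highest peak from miR-204-5p, at 13. The excitatory list also held 1 Ttr peak, of miR-124-3p with a score of 5. Other high miR-204-5p sites were Malat1, a nuclear noncoding RNA (62), and the 3′ UTRs of Lfng, which modifies Notch receptors (29), and of the myosin Myo10 (14).

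miR-219a-5p had its highest peak on the coding sequence of Pkp4 (chr2:59334782-59334798, score 181), a junction-associated armadillo protein. It was also the highest of the 91 peaks of any small RNA on Pkp4, and it was found in reps 5-7 at a score of 8. A miR-338-3p peak of score 6 overlapped it. Further miR-219a-5p sites were mt-Nd5, a subunit of mitochondrial complex I (108), and the 3′ UTRs of Gprc5b (37), Camk2a, the kinase of excitatory synapses (35), Ddah1 (33), the clathrin uncoating factor Dnajc6 (31) and the synaptotagmin Syt5 (20). The highest peak of miR-338-3p was intergenic, in the flank of Gm42418 (chr17:39846902-39846911, score 38), and its highest on named genes were on the coding sequences of Olfm1 (19) and of Mbp, myelin basic protein (16). All 6 peaks of miR-219a-2-3p scored 10 or less, and 4 of them were on Mbp and Dst, the cytolinker dystonin, with 2 peaks each.

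miR-142a-3p peaked on the 3′ UTR of Hbb-bs, the adult beta globin of red cells (chr7:103826663-103826679, score 74). Of 7 peaks on Hbb-bs, all of different small RNAs, this was the highest, and in reps 5-7 it was the only one (4). Its next sites were the coding sequence of Ank2, an ankyrin of neurons (36), mt-Cytb (23), mt-Nd4 (20), and the 3′ UTRs of Sowaha (17) and Soat1, which esterifies cholesterol (14). miR-146a-5p had its highest peaks on the coding sequence of Lgals9, the galectin-9 gene, at 10 and 9. Those were the only peaks of any small RNA on Lgals9.

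**Figure D3:**
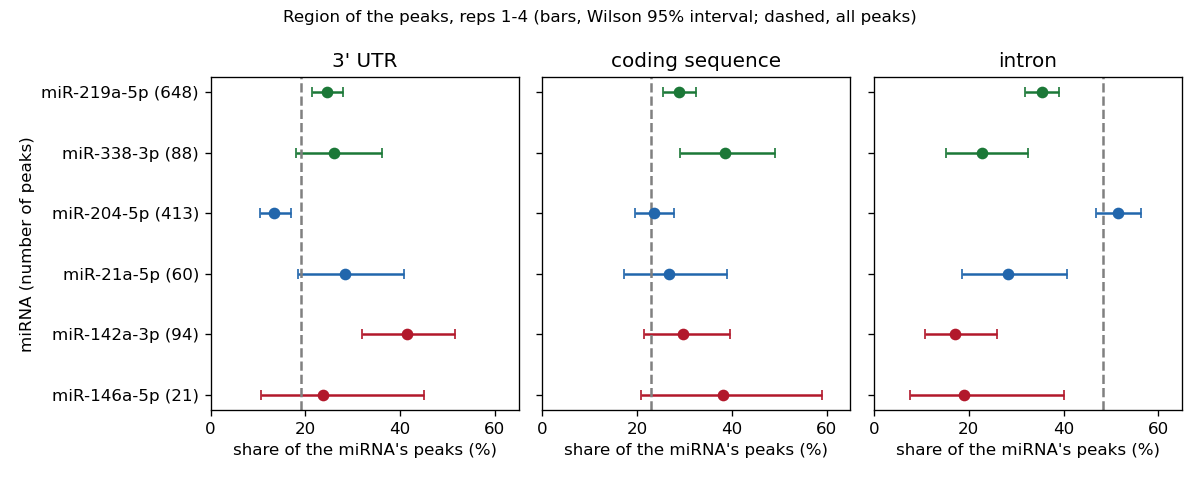
Share of each miRNA's peaks (horizontal axis, percent, with Wilson 95% intervals) in 3′ UTRs, coding sequences and introns for the 6 miRNAs with at least 20 peaks in reps 1-4, the dashed line marking all peaks. miR-142a-3p lies to the right in 3′ UTRs at 41.5%, and miR-204-5p to the right in introns at 51.6% while the other miRNAs lie left of the line there.

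The miRNAs differed among themselves in where their peaks lay on the transcript. Of miR-142a-3p peaks, 41.5% were in 3′ UTRs (32.1 to 51.6%), against 19.0% of the peaks of all other small RNAs, an odds ratio of 3.03 (Fisher's exact test, Benjamini-Hochberg adjusted over 197 small RNAs, adjusted p = 1.68e-06). miR-219a-5p was also higher, at 24.5% (adjusted p = 9.68e-04), and miR-204-5p lower, at 13.3% (0.00474). A higher share was common in this test, with 58.4% of small RNAs passing in that direction and 10.2% in the lower one. The 23.8% of miR-146a-5p, 28.3% of miR-21a-5p and 26.1% of miR-338-3p did not pass the exact test (adjusted p = 0.635, 0.0963 and 0.136).

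In coding sequences, miR-338-3p stood at 38.6% (29.1 to 49.1%) and miR-219a-5p at 28.9% (25.5 to 32.5%), against 23.0% of other peaks (Fisher's exact test, adjusted p = 0.00214 and 0.00129). Of all small RNAs, 43.1% passed in that direction. The other members stood at 23.5% to 38.1% and did not pass. Without miR-124-3p among the other small RNAs, the adjusted exact p of miR-219a-5p was 0.213.

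Introns held fewer peaks of every member tested except miR-204-5p. The shares were 17.0% for miR-142a-3p, 19.0% for miR-146a-5p, 22.7% for miR-338-3p, 28.3% for miR-21a-5p and 35.3% for miR-219a-5p, against 48.4% of other peaks. All 5 passed the exact test (adjusted p between 5.95e-11 and 0.00899), as did 79.7% of all small RNAs in that direction. miR-204-5p had 51.6% of its peaks in introns (46.8 to 56.4%) and did not pass (adjusted p = 0.212). The comparison turned on miR-124-3p, 61.4% of whose peaks were intronic. With it left out, miR-204-5p was higher by 8.71 percentage points (Fisher's exact test, adjusted p = 5.67e-04). Leaving it out was chosen after the data were seen. At or above the median score, with miR-124-3p kept, the share of miR-204-5p was instead lower and did not pass.

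Peaks on mitochondrial transcripts outside rRNA also differed between members. miR-142a-3p had 14 of 94 peaks there (14.9%, 9.08 to 23.5%), against 0.574% of other peaks, an odds ratio of 30.3 (Fisher's exact test, adjusted p = 2.51e-14), the fifth highest share of 197 small RNAs. miR-219a-5p had 12 of 648 (1.85%, adjusted exact p = 0.00271). In this direction 20.3% of small RNAs passed. miR-21a-5p had 2 of 60 and did not pass (0.138), and miR-204-5p, miR-338-3p and miR-146a-5p had 0 of 413, 88 and 21. This test was added after the data were seen.

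Within 3′ UTRs the peaks were spread along the whole length. The median position was 51.2% of the way from the UTR start for the oligodendrocyte group, 44.5% for the astrocyte group and 51.3% for the microglia or blood group, against 46.9% for other small RNAs. The medians of the single miRNAs with at least 20 such peaks ran from 41.5% for miR-204-5p to 66.9% for miR-338-3p.

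**Figure D4:**
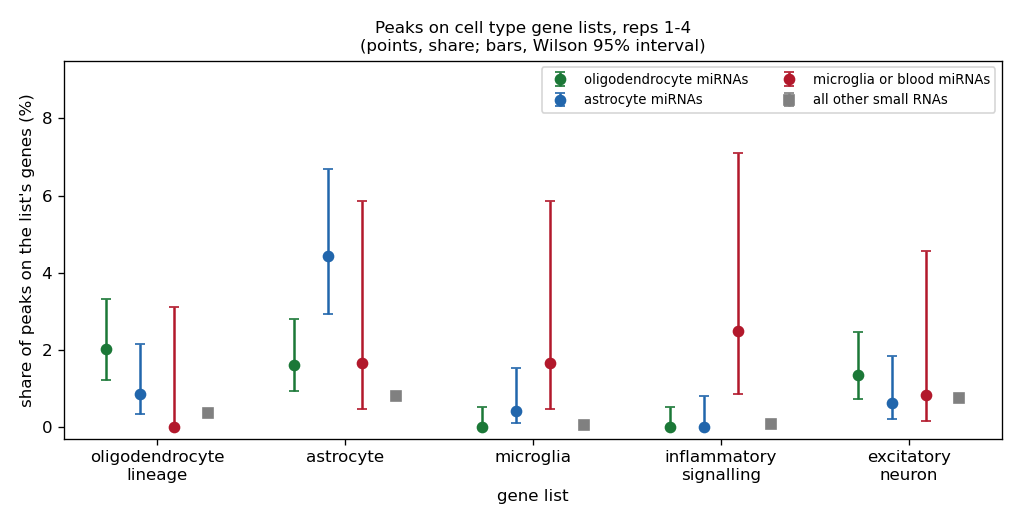
Share of each group's reps 1-4 peaks (vertical axis, percent, with Wilson 95% intervals) on the genes of 5 lists, beside all other small RNAs as squares. The astrocyte group reaches 4.44% on astrocyte genes and the oligodendrocyte group 2.02% on oligodendrocyte-lineage genes, with intervals above the squares at 0.793% and 0.372%.

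Each group as a whole had a larger share of its peaks on marker genes of its own cell type than other small RNAs had. These shares are given as counts without a test. Some shares on gene lists of other cell types were also larger, as given below. Of oligodendrocyte miRNA peaks, 15 of 742 were on oligodendrocyte-lineage genes (2.02%, 1.23 to 3.31%), against 0.372% of the peaks of other small RNAs (0.349 to 0.397%). They lay on 8 of the 26 listed genes with any peak. Among them, Mbp and Mobp, which encode myelin proteins, had 3 each, Ptprz1, a phosphatase of precursors, had 2, and Ugt8a, which makes myelin lipid, Ermn, Opalin and Pdgfra had 1 each. The single peak on Ermn was the only one of any small RNA there. All 3 peaks on Mobp were of miR-219a-5p in the 3′ UTR, while that on Opalin was in coding sequence. By miRNA, miR-219a-5p had 10 of 648 peaks on oligodendrocyte-lineage genes (1.54%, 0.840 to 2.82%). miR-338-3p had 3 of 88 (3.41%, 1.17 to 9.55%), fewer than on astrocyte genes, as given below. The vascular miR-126a, miR-143 and miR-145a, which are not members, had 20 of 2894 peaks on oligodendrocyte-lineage genes (0.691%, 0.448 to 1.07%). There the astrocyte group had 4 of 473 (0.846%, 0.329 to 2.15%) and the microglia or blood group 0 of 120.

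Astrocyte miRNAs had 21 of 473 peaks on astrocyte genes (4.44%, 2.92 to 6.69%), against 0.793% of other small RNAs (0.758 to 0.829%). They lay on 9 of 23 listed genes, among them the glutamate transporter Slc1a2 (6 peaks), Sparcl1 (4), the glycolytic enzyme Aldoc (2), the lipid carrier Apoe (2), and Clu, the gap junction protein Gja1, glutamine synthetase Glul and the bicarbonate transporter Slc4a4 (1 each). Among peaks in coding sequence and UTRs, the share was 17 of 188 (9.04%, 5.72 to 14.0%), against 1.55%. miR-204-5p gave 20 of the 21 peaks and miR-21a-5p 1. That was 1 of the 60 peaks of miR-21a-5p (1.67%, 0.295 to 8.86%). It had 2 of 60 each on oligodendrocyte-lineage and on vascular genes (3.33%, 0.919 to 11.4%). Astrocyte genes also bore other members. The whole oligodendrocyte group had 12 of 742 peaks on them (1.62%, 0.928 to 2.81%), and the microglia or blood group 2 of 120 (1.67%, 0.458 to 5.87%). miR-338-3p, of the oligodendrocyte group, had 6 of its 88 peaks on them (6.82%, 3.16 to 14.1%), among them peaks on Slc1a2, Apoe and Glul. miR-219a-5p had 0.926% there, with the 0.793% of other small RNAs inside its interval of 0.425 to 2.01%.

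The microglia or blood group had 2 of 120 peaks on microglia genes (1.67%, 0.458 to 5.87%), against 0.0528% of other small RNAs. These were miR-142a-3p peaks on the 3′ UTR of Ctss, the lysosomal protease cathepsin S (score 8), and on the coding sequence of Sall1, a transcription factor of microglia (4). On genes of inflammatory signalling the microglia or blood group had 3 peaks (2.50%, 0.854 to 7.09%), against 0.0872%. There the oligodendrocyte and astrocyte groups had 0 of 742 and 0 of 473, with Wilson upper bounds of 0.515% and 0.806%. On microglia genes, the astrocyte group also had 2 of 473 peaks (0.423%, 0.116 to 1.53%), 1 each of miR-21a-5p and miR-204-5p. The oligodendrocyte group had 0 of 742 there. Each of these counts rests on 3 peaks or fewer. The 3 inflammatory signalling peaks lay on Card10, Il6st and Tgfbr1. These genes are also in the list of known pairs given below, so both results rest on the same peaks. Because that gene list holds known targets of these miRNAs, a larger share was partly built in.

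Neuronal genes also bore members. On excitatory neuron genes, the oligodendrocyte group had 10 of 742 peaks (1.35%, 0.734 to 2.46%), against 0.743% of other small RNAs (0.710 to 0.778%), and these intervals overlapped. Among coding sequence and UTR peaks it had 8 of 413 (1.94%, 0.985 to 3.78%), against 0.887% (0.832 to 0.946%), and those intervals did not overlap. Of the 10, Camk2a had 5, the glutamate receptor subunits Grin2a 2 and Grin2b 1, and the vesicular glutamate transporter Slc17a7 2. Both Slc17a7 peaks were of miR-219a-5p in the 3′ UTR, the higher at a score of 15, and 1 was found in reps 5-7 (5). The anti-Ago2 lists come from whole forebrain and do not record the cell type of a pair, and the excitatory list held none of these miRNAs. On regulators of myelination the oligodendrocyte group had 4 peaks (0.539%, 0.210 to 1.38%), against 0.184%. All 4 lay on Pdgfra, Zbtb18 and Elovl7, which the list of known pairs below also holds as targets of miR-219a-5p. A larger share on this gene list was thus also partly built in. On inhibitory neuron genes the groups had 1, 0 and 1 peaks, and on vascular genes 0, 2 and 0, in the order oligodendrocyte, astrocyte, microglia or blood. The 2 peaks on vascular genes were 0.423% of the astrocyte group (0.116 to 1.53%), against 0.0764% of other small RNAs. Both were of miR-21a-5p.

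By gene, the oligodendrocyte group had 10 peaks each on Pcdh9 and Kcnip4, 9 on Nrg3, 8 on Malat1, 6 each on Nrxn3 and Celf2, and 5 each on Camk2a, Dst and Phactr1. On Pcdh9, 9 of the 10 peaks were intronic and 2350 peaks of any small RNA were present. The astrocyte group had 10 on Celf2, 9 on Malat1, 8 each on Nrg3 and Kcnip4, 7 on Lsamp, 6 on Slc1a2, 5 on Rbfox1 and 4 each on Sparcl1 and Fgf14. The microglia or blood group had 5 on mt-Nd1 and 2 each on mt-Nd4, Lgals9, mt-Co1, Eef1a1, mt-Nd5, Ist1, mt-Nd2 and Cltc.

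A gene's share among a group's peaks was compared with its share among all other peaks over the 4096 genes with at least 10 peaks of any small RNA. For the oligodendrocyte and astrocyte groups, 0 genes passed (Fisher's exact test, Benjamini-Hochberg), and 91 and 81 had an unadjusted exact p under 0.05. The lowest adjusted exact p was 0.189 for the oligodendrocyte and 0.148 for the astrocyte group. The genes with at least 3 peaks of a group were also tested alone, which called 19 of 53 for the oligodendrocyte group (35.8%) and 5 of 27 for the astrocyte group (18.5%). Because that filter picks genes for being high in the group, these calls and their direction support nothing, and the values are given as a description. In the oligodendrocyte group the highest odds ratios among them were Peak1 (49.0), Mobp (26.5), Sepp1 (25.1), Irs1, the insulin receptor substrate (24.5), Reps2 (24.5), Map4 (22.8), Gnb1 (14.4), Usp9x (13.6), Ptgds, prostaglandin D synthase (13.2), and Sept7 (11.4). Peak counts behind these ratios were small, such as 3 of the group's peaks on Mobp beside 37 others. In the astrocyte group the odds ratios included Sparcl1 (8.40), Malat1 (5.88), Slc1a2 (4.36) and Celf2 (2.66).

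For the microglia or blood group, mt-Nd1 was the only gene (1 of 1, 100%) with at least 3 peaks. It held 5 of the group's 120 peaks (4.17%), against 0.0769% of other peaks, an odds ratio of 56.5. Over all 4096 genes, mt-Nd1 (adjusted p = 2.11e-04) and Ist1 (0.0453) passed the exact test, which is 0.0488% of genes. Ist1, which acts in membrane scission, had 1 peak each of miR-142a-3p and miR-146a-5p in its 3′ UTR.

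Some of the target pairs known from other work were present. A list of 66 pairs of a member miRNA and a gene known as its target was searched by gene symbol. In reps 1-4, 8 pairs had a peak of the miRNA on the gene, though 64 had a peak of some small RNA there, and none was found in reps 5-7. For scale, in reps 1-4 miR-219a-5p had peaks on 438 of 11349 genes, miR-204-5p on 263 and miR-142a-3p on 77. The others were on fewer, with 70 for miR-338-3p, 53 for miR-21a-5p, 16 for miR-146a-5p and 1 for miR-223-3p. The number of pairs expected from these counts was not computed.

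The found pairs of miR-219a-5p included regulators of oligodendrocyte maturation. Its peaks lay on the 3′ UTRs of Pdgfra, the growth factor receptor of precursors (chr5:75197705-75197723, score 6), the repressor Zbtb18 (chr1:177450497-177450533, 7, and chr1:177450630-177450650, 13), and Elovl7, which lengthens fatty acids (chr13:108282725-108282743, 3), and on the coding sequence of Grin1, the obligate NMDA receptor subunit (chr2:25298510-25298535, 3). miR-219a-5p thus had 4 of 10 listed pairs. Its Pdgfra and Elovl7 peaks each overlapped a peak of a small RNA with another seed, and its Zbtb18 and Grin1 peaks did not. miR-338-3p had 0 of 5, which included Sox6, Zbtb18 and Hes5.

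In the astrocyte group, miR-204-5p met the deacetylase gene Sirt1 (chr10:63320282-63320317, 13), 1 of 10 pairs, and miR-21a-5p had 0 of 12, among them Pdcd4 and Spry2. In the microglia or blood group, miR-142a-3p met Il6st, the shared receptor chain of interleukin 6 cytokines (chr13:112504596-112504617, 4), and the TGF-beta receptor Tgfbr1 (chr4:47414864-47414885, 6), 2 of 8 pairs. miR-146a-5p met Card10, an activator of NF-kappa B (chr15:78775578-78775605, 5), 1 of 10 pairs. That peak was the only one of any small RNA on Card10. miR-223-3p had 0 of 11. All of the peaks in this paragraph were in 3′ UTRs. The Sirt1 peak overlapped a peak of a small RNA with another seed, and the others did not.

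Nearly all member peaks of reps 5-7 were also present in reps 1-4. Of 20, 19 overlapped a reps 1-4 peak of the same miRNA by at least 1 base (Wilson interval 76.4 to 99.1%), and 2666 of the 3000 other peaks did (88.9%). With a reciprocal overlap of 50% the counts were 11 of 20 (55.0%) and 50.3%. The oligodendrocyte peaks were on the 3′ UTRs of Cnrip1, Laptm4a, Apc, Slc17a7, Gprc5b and Gpm6a, and on the coding sequences of Pkp4 and mt-Nd5. The other 2 oligodendrocyte peaks overlapped each other at an intergenic place of the chromosome 17 region described next. The astrocyte peaks were on Ttr, Sparcl1, Malat1, mt-Tm and Aldoc (2), among others, with 2 more in that region. The peak without a counterpart was miR-204-5p on the coding sequence of Aldoc (chr11:78324804-78324815, 3). miR-142a-3p on Hbb-bs was the only peak of its group.

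**Figure D5:**
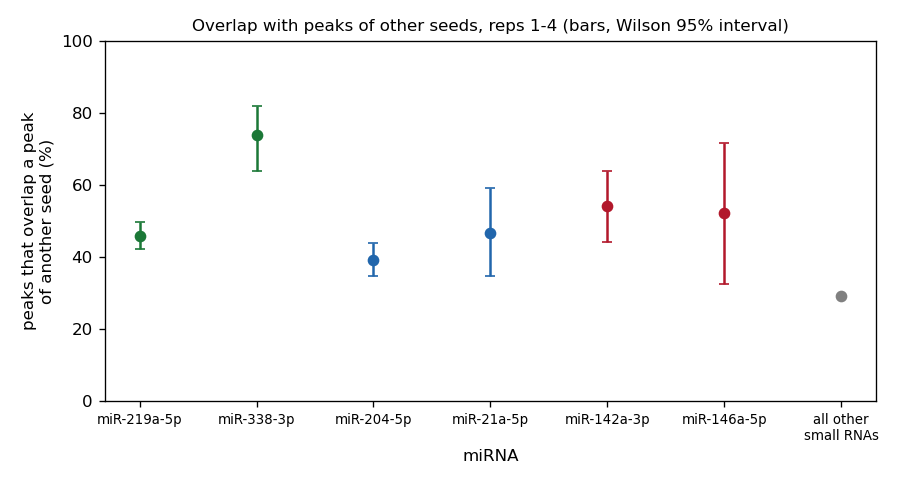
Share of each miRNA's reps 1-4 peaks that overlap a peak of a small RNA with another seed (vertical axis, percent, with Wilson 95% intervals) for 6 miRNAs and for all other small RNAs. miR-338-3p is highest at 73.9% and miR-204-5p lowest of the 6 at 39.2%, beside 29.1% for the other small RNAs.

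Members often shared their place with small RNAs of another seed. Of all members, 46.5% (43.9 to 49.2%) overlapped such a peak, against 29.1% of other peaks. The same order held in each region, at 55.2% against 44.0% in 3′ UTRs, 55.2% against 41.9% in coding sequences and 29.4% against 16.0% in introns. Member peaks were wider, as given above, and the part of that width in the overlap was not tested. Of the 240709 other peaks, 72011 were of miR-124-3p, and these could not count an overlap with miR-124-3p itself. Members could, and 247 of 1335 did, so the shares of members and other peaks are not directly comparable. miR-338-3p had the highest share of the 6 miRNAs at 73.9% (63.8 to 81.9%), and 32 of its 88 peaks overlapped miR-124-3p.

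Some members overlapped a peak of another of the 3 groups. This held for 41 of 1335 (3.07%, 2.27 to 4.14%). Of all other peaks, 1.44% overlapped a member of any of the 3 groups (1.39 to 1.48%). Since that set of partners is wider, the 2 shares are not directly comparable. Most of the 41 lay in the flank of Gm42418 on chromosome 17 or at an intergenic place on chromosome 3 (near chr3:5860612-5860666). In the flank, members were between positions 39846491 and 39846913. Peaks of up to 218 other seeds met a member at these places. Members within 5000 bases of Gm42418 numbered 8, 8 and 5 in the oligodendrocyte, astrocyte and microglia or blood groups (1.08%, 1.69% and 4.17%), against 0.387% of all peaks. Some high scores were among them, such as miR-204-5p at 100 and miR-219a-5p at 83. By gene, the oligodendrocyte and astrocyte groups shared 87 genes, which is 18.1% of the first and 29.3% of the second. These groups touched 480 and 297 of the 11349 genes with any peak. In all, 14 genes bore all 3 groups, among them Malat1, Apoe and Ank2, with 803, 60 and 707 peaks of any small RNA. The overlap expected from the number of peaks per gene was not computed.

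Although no member was found in the excitatory list, some members lay where that list had peaks of other small RNAs. This held for 52 of 1335 (3.90%, 2.98 to 5.07%), against 1.35% of other peaks in reps 1-4 that overlapped an excitatory peak of a different small RNA (1.31 to 1.40%). Overlaps with an excitatory peak of the same small RNA were not counted. That could lower only the share of other peaks, since the excitatory list had no member, so the 2 shares are not directly comparable. Of the 52, 24 were in the oligodendrocyte group (3.23%), 15 in the astrocyte group (3.17%) and 13 in the microglia or blood group (10.8%). Most of the 52 lay in the 2 crowded intergenic places named above. Among coding sequence and UTR peaks, 26.9% (22.8 to 31.4%) of the oligodendrocyte group were on genes with any excitatory peak, 23.4% (17.9 to 29.95%) of the astrocyte group and 35.8% (26.2 to 46.7%) of the microglia or blood group, against 20.5% of other small RNAs. The microglia or blood peaks included those on mt-Nd1 (5) and on mt-Nd4, mt-Nd5 and mt-Nd2 (2 each), mitochondrial genes with 1 excitatory peak each. The oligodendrocyte group also had peaks on these genes. Shares without them were not computed.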

How the data were processed

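Chimeric reads were paired 150 base reads, at 61 to 138 M reads per sample by the labels' protocol, after 3 rounds of ultraviolet cross-linking. Depth per list is not stated, so precision follows from peak numbers. The authors called peaks on mm10 over pooled libraries, with at least 3 reads and 2 libraries per peak, per the deposited calling summaries. No aligner or caller is given in the sources used here. A deposited score is the authors' whole number per peak. It was used only to describe and rank peaks within a list.

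Peaks were counted per miRNA and annotated gene. Shares were tested with Fisher's exact test, two-sided, over all small RNAs with at least 10 peaks (between lists) or 20 (regions), Benjamini-Hochberg adjusted, at a threshold of 0.05 (Python 3.11.15, scipy 1.17.1), after tests on simulated data. The tests treat peaks as independent, while peaks at 1 place share reads and gene abundance. Reads without molecular identifiers are not independent molecules. The members, gene lists and pairs were chosen with earlier results of these data known. All member miRNAs were named, with each group's 10 genes of most peaks, 5 highest peaks, up to 10 called genes by odds ratio, the found pairs and list genes. Some genes that this rule takes are not reported here. Other genes were chosen after their values were seen.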

Additional observations from a re-analysis of the deposited data

How the results depend on the processing

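No paired analysis was possible because libraries were pooled before peaks were called, and for the same reason no library could be left out. The search for seed matches near peaks was not run, as it needs a genome sequence that was not used here. Small RNAs that passed between reps 5-7 and reps 1-4 numbered 7, but 4 at or above the median score, 1 against an equal number of the highest-scoring reps 1-4 peaks and 12 in coding sequence and UTRs. For the excitatory list, 10 became 2, 5 and 5 under those settings and 4 in 3′ UTRs. No member passed in any of them. Small RNAs past the 3′ UTR test fell from 135 of 197 to 83 of 156 at or above the median score.

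Genes called for the oligodendrocyte group (19) numbered 7 at or above the median score, 8 in coding sequence and UTRs, 9 without introns, 42 with a minimum of 2 peaks, and 0 over all 4096 genes. For the astrocyte group (5) they numbered 3, 2, 3, 33 and 0. For the microglia or blood group (1), a minimum of 2 peaks gave 9 and all genes gave 2. Recurrence was 55.0% with reciprocal overlap and 100% with any small RNA. In coding sequence and UTRs alone, 3.39% of oligodendrocyte and 9.04% of astrocyte peaks were on their own list's genes, against 0.593% and 1.55% of other small RNAs.

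Differences that turned sign had not passed, and did not pass after turning. In percentage points against reps 1-4, reps 5-7 became higher for miR-142a-3p with all peaks kept (0.00867) and at or above the median score (0.0282), and lower for miR-219a-5p at or above the median score (-0.00245) and in coding sequence and UTRs (-0.00287), for miR-204-5p in 3′ UTRs (-0.120) and for miR-21a-5p in 3′ UTRs (-0.0370) and in coding sequence and UTRs (-0.0327). The coding sequence share turned lower for miR-204-5p with all peaks kept (-0.667) or without miR-124-3p (-2.81) and for miR-21a-5p with all peaks kept (-0.693). The intron share of miR-204-5p was lower at or above the median score (-5.84). The causes were not tested. Chosen after seeing the data were leaving out miR-124-3p or the flank of Gm42418, the test over all 4096 genes and the alternatives of the gene list shares. Of the region calls of single members, the lower 3′ UTR share of miR-204-5p and the higher coding sequence share of miR-338-3p did not pass the exact test at or above the median score (adjusted p = 0.227 and 0.174).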
